A study of Mus musculus with 4 samples.

Results

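The 9 genes described here encode the death receptors Fas, Tnfrsf10b and Tnfrsf1a, the adaptor Fadd, the initiator protease Casp8, the kinases Ripk1 and Ripk3, the pore-forming effector Mlkl and the nucleic acid sensor Zbp1. They were found by symbol among 16846 rows of a count table, and all 9 were present. Casp8 is the only caspase among them. The set was chosen by pathway role with the counts and ratios of these same libraries known, and no contrast or threshold is recorded for the choice, so every ratio and p-value below describes these libraries and supports no further claim. RNA was sequenced from HT22, an immortalised mouse hippocampal neuronal line, after manipulation of the long noncoding RNA Ntoco. The groups were cells with an shRNA against Ntoco (knockdown), cells with a vector marked Lv that carries Ntoco (overexpression), cells with an empty vector and cells with a control shRNA. All 4 groups were HT22 per the cell line label, although the titles number the cells HT22 to HT25, and no treatment or time is given. The column names call the vector pcDNA, so whether the delivery was a plasmid or a lentivirus is uncertain.

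The 8 libraries, 2 in each group, held 18452588 to 19859041 counts, and 12115 genes, among them all 9 members, passed the filter on low counts. No row carried the name Ntoco (0 of 16846), so the values do not check the knockdown or the overexpression. Of 12 neuronal markers, 4 had no row under their symbols (Rbfox3, Snap25, Nefm and Dcx). Of the other 8, 7 averaged under 1 CPM (counts scaled to a common library size and composition), with Eno2 at 19.0 CPM. The summed level of 8 fibroblast and meningeal markers was 2220 to 6320 CPM, carried by Col1a2, Fn1 and Col1a1, while 4 of the 8 averaged under 1 CPM and Lum was at 0. Microglia and macrophage markers summed to 11.6 to 19.4 CPM, with Ptprc at 0 counts, and neuronal markers to 12.2 to 26.8 CPM. Higher sums were found for astrocyte markers (60.9 to 164 CPM), endothelial and pericyte markers (111 to 263 CPM) and oligodendrocyte lineage markers (193 to 445 CPM). In these 3 lists, 3 of 7, 6 of 8 and 4 of 7 markers with a row averaged under 1 CPM.

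Death receptors of the tumour necrosis factor (TNF) receptor family span the plasma membrane and carry a cytoplasmic death domain. Ligand-bound Fas and Tnfrsf10b recruit Fadd, which brings in procaspase 8, and active caspase 8 starts apoptosis. Tnfrsf1a first assembles a complex around Ripk1 that signals to NF-kB, and the same kinase can pass into a cell death complex. When caspase 8 is inactive, Ripk1 or Zbp1 engages Ripk3 through a shared interaction motif, Ripk3 phosphorylates Mlkl, and Mlkl breaks the membrane in a lytic death called necroptosis. Zbp1 and several other genes of this pathway are known to be induced by interferon.

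Promoter windows from 250 bases before to 50 bases after the start were available from RefSeq (GRCm38.p6) for 7 of the 9 genes, 8 windows in all, and those of Zbp1 and Tnfrsf10b were not analysed here. The interferon-stimulated response element was searched as GAAANNGAAA and the STAT site GAS as TTCNNNGAA, on both strands. GAAANNGAAA occurred in 1 of the 8 windows, that of a downstream start of Ripk1, and in 3.44% of 32851 windows of all genes. TTCNNNGAA occurred in 3 of the 8, those of Fas, Tnfrsf1a and the same Ripk1 start, against 8.3% of all windows. The NF-kB consensus occurred in 0 of the 8 and in 8.46% of all. The Fas window is shown because Fas varied most among the receptors, and the Ripk1 window because it alone holds the interferon element, here from base -5 to base 5 and overlapping a GAS match. Each is printed 5′ to 3′ to 25 bases after the start, with GAS and interferon element matches in capitals.
Fas, chr19:34290409-34290683, plus strand: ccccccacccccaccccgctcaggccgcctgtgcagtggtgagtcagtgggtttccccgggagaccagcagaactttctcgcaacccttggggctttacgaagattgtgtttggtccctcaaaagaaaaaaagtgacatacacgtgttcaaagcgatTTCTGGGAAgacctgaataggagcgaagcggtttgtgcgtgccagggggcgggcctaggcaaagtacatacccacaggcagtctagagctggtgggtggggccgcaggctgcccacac
Ripk1 downstream start, chr13:34002624-34002898, plus strand: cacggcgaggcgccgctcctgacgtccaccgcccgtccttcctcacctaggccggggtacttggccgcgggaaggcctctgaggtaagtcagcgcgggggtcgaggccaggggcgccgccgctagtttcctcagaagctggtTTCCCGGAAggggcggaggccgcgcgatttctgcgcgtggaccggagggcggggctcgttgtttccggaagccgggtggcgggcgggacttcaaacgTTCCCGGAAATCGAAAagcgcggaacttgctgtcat
A match is a run of letters and does not show that a factor binds there.

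Levels of different genes were set side by side as FPKM, the authors' fragment counts scaled to transcript length and library size, over all 8 libraries. Ripk3 was highest with a median of 47.8 FPKM (36.9 to 63.8), followed by Mlkl with 35.7 (22.7 to 55.0) and Tnfrsf1a with 33.0 (27.6 to 55.6). The ranges of these 3 genes overlapped. Casp8 with a median of 13.2 FPKM (8.80 to 20.7), Tnfrsf10b with 12.2 (7.95 to 21.2) and Fadd with 8.46 (5.64 to 12.8) formed a lower set, whose ranges overlapped each other and lay below those of the first 3. Ripk1 had a median of 3.29 FPKM (2.46 to 4.005), below every value of the genes above it. Zbp1 and Fas had the lowest medians, 1.83 and 1.81 FPKM, but Zbp1 ranged from 0.458 to 95.8 FPKM and Fas from 0.615 to 6.98 FPKM. The order near Ripk1, Mlkl and Fas depends on the length used: the authors' FPKM implies 16571 bases for Ripk1, whereas its longest coding transcript in GENCODE M21 has 6472. With GENCODE lengths, a choice made after seeing the data, the median was 8.41 for Ripk1 against 6.24 for Fadd, and 52.1 for Mlkl against 47.8 for Ripk3. For Fas it was then 2.99 against 1.99 for Zbp1.

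**Figure D1:**
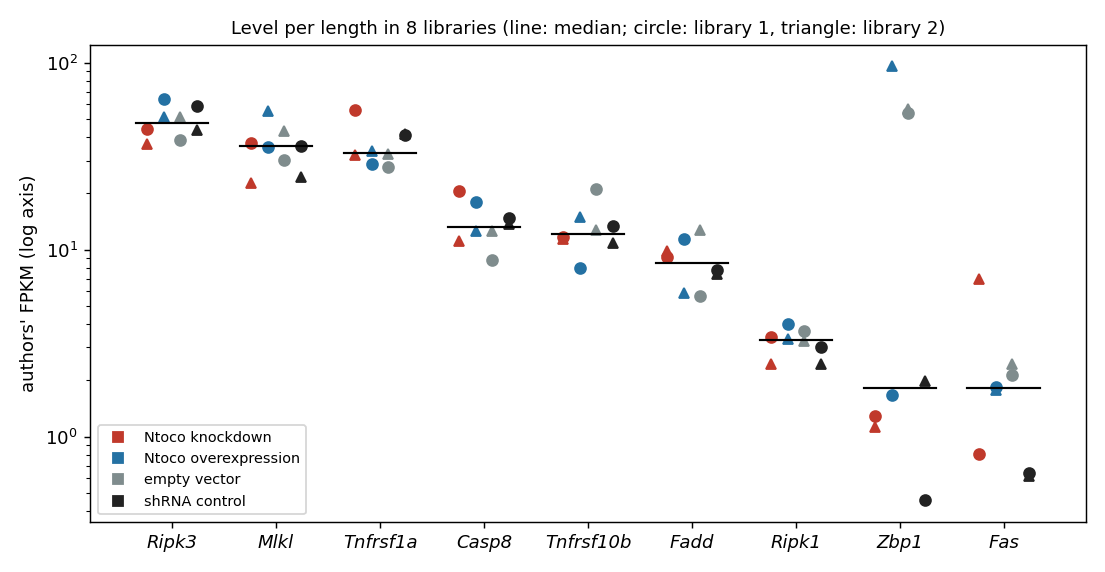
The authors' FPKM (log axis) of each gene in the 8 libraries, with genes in order of their median (black line), colours for groups and circles and triangles for libraries 1 and 2. Ripk3, Mlkl and Tnfrsf1a lie between 22.7 and 63.8 FPKM, and Zbp1 spans 0.458 to 95.8 FPKM.

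Within genes, Zbp1 and Fas also varied most across libraries. The standard deviation of log2 CPM over the 8 libraries was 2.95 for Zbp1 and 1.04 for Fas, above 99.9% and 97.6% of the genes tested. It was 0.29 to 0.44 for the other 7 genes, where the median of all genes tested was 0.31. From the lowest to the highest library these 7 genes spanned 1.74-fold (Ripk1) to 2.73-fold (Tnfrsf10b), whereas the factor was 212 for Zbp1 and 11.2 for Fas. In such bulk RNA, fewer cells that express a gene and less of its RNA per cell cannot be told apart.

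With edgeR's quasi-likelihood test and adjustment over all 12115 genes, 0 of the 9 genes passed an adjusted p of 0.05 in any contrast. The same was true of all genes tested, of which 0% passed in the knockdown, in the overexpression, in the empty vector comparison and in the overexpression effect minus the knockdown effect. At an unadjusted p under 0.05, 1 of the 9 was reached in the knockdown against shRNA control (Fas, higher), where 1.51% of all genes were higher, 1.61% lower and 3.12% either. In the overexpression against empty vector it was 0 of 9, with 3.53% of all genes higher, 4.09% lower and 7.62% either. In the empty vector against shRNA control it was 2 of 9 (Zbp1 and Fas, both higher), with 6.45% of all genes higher, 6.1% lower and 12.5% either. The difference between effects reached it in 1 of 9 (Fas, lower), with 3.57% of all genes higher, 3.35% lower and 6.92% either. Libraries of the knockdown did not overlap those of the control in 2 of the 9 (Fas and Fadd, both higher), against 15.1% of all genes higher, 14.1% lower and 29.2% either. Overexpression and empty vector libraries did not overlap in 3 of the 9 (Ripk3 and Casp8 higher, Fas lower), against 47.2% of all genes. Empty vector and shRNA control libraries did not overlap in 5 of the 9 (Zbp1, Fas and Ripk1 higher, Tnfrsf1a and Casp8 lower), against 51.1% of all genes. DESeq2's Wald test called 0 of the 9 in the knockdown, in the overexpression and in the difference, and called Zbp1 alone in the empty vector comparison. Over all genes it called 15, 1, 12 and 281 in those 4 contrasts. Nothing in the labels says that the libraries of a group came from separate cultures, so the tests gauge no more than how far these libraries scatter. The knockdown and empty vector comparisons share the shRNA control libraries, and the overexpression and empty vector comparisons share the empty vector libraries.

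**Figure D2:**
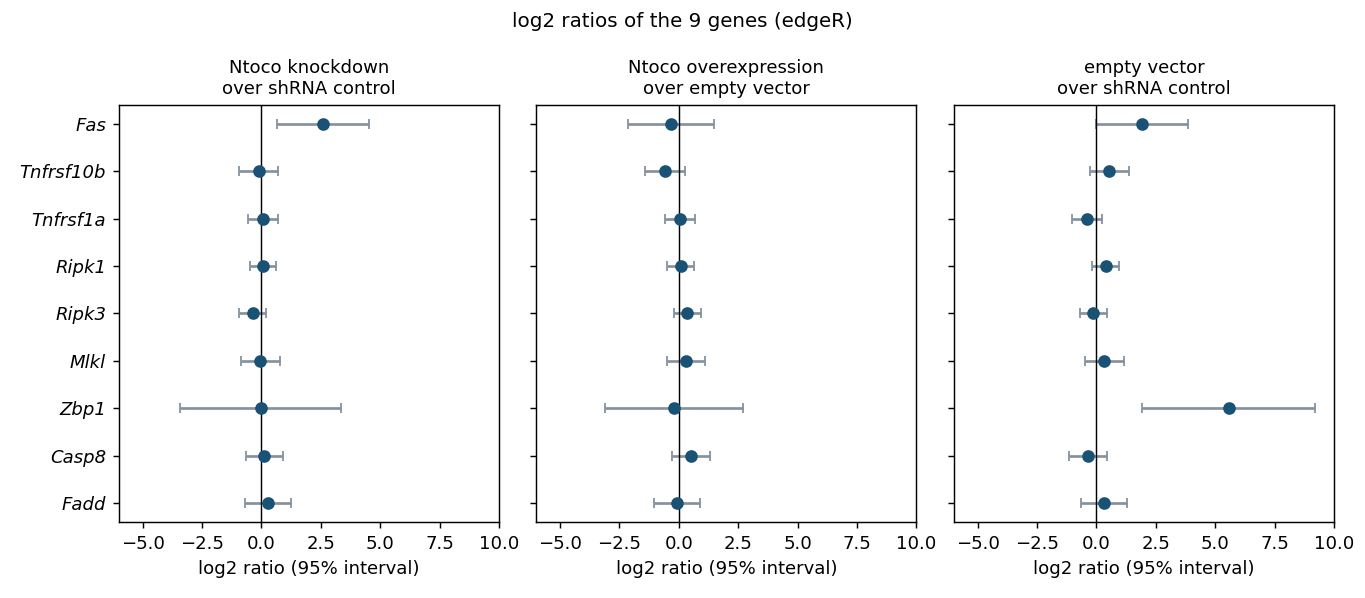
Log2 ratios of the 9 genes from edgeR with 95% intervals (horizontal bars), n = 2 libraries per group, for knockdown over shRNA control, overexpression over empty vector and empty vector over shRNA control. The intervals leave out 0 for Fas in the knockdown and for Zbp1 and Fas in the empty vector comparison, and include it elsewhere. They are computed from the F statistic, so this repeats the unadjusted p under 0.05 and adds no evidence.

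Fas, the receptor of Fas ligand (Entrez Gene 14102, GRCm38 chromosome 19, 34290647 to 34327775), was low in control cells and high in 1 knockdown library. It had 1.94 and 16.3 CPM in the knockdown libraries, 4.64 and 4.41 CPM in the overexpression libraries, 5.46 and 6.03 CPM in the empty vector libraries and 1.57 and 1.45 CPM in the shRNA control libraries. Knockdown library 2 stood above every other library with 331 counts, while knockdown library 1, with 37 counts, lay just above the controls, which had 30 and 28. The knockdown pair averaged 9.13 ± 10.2 CPM and the shRNA control pair 1.51 ± 0.083 CPM (SD, n = 2 each). Over all genes, 15.1% had both knockdown libraries above both shRNA controls. In log2 terms the knockdown gave 2.59 (SE 0.84; adjusted p 0.992 in edgeR). Leaving out knockdown library 2 turned this into 0.35, and leaving out library 1 into 3.42. In the empty vector cells Fas was 3.79-fold higher than with the control shRNA (log2 ratio 1.92, SE 0.83, edgeR adjusted p 0.398), with close values in the libraries of each group. Overexpression libraries lay below both empty vector libraries by a small margin, with a log2 ratio of -0.34 (SE 0.78), where 23.1% of all genes had both overexpression libraries lower.

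Targets of NF-kB, like Fas, differed between the knockdown libraries and were higher with the empty vector than with the control shRNA. The median of 23 such genes, as log2 CPM minus the shRNA control mean, was -0.20 and 1.04 in the knockdown libraries, 0.86 and 0.52 in the overexpression libraries, 1.06 and 1.70 in the empty vector libraries and 0.01 and -0.01 in the shRNA control libraries. Knockdown library 1 was near the controls and library 2 was not, for the list as for Fas. However, Fas was highest in knockdown library 2 at 16.3 CPM, while the list median was highest in empty vector library 2. In edgeR 0 of the 23 passed in any contrast. DESeq2 called 1 of the 23 in the knockdown, 0 in the overexpression and 5 with the empty vector, all higher. Over all genes it called 15, 1 and 281. The part of the list in the Fas values was not tested. The overexpression effect on Fas minus its knockdown effect was -2.93 on the log2 scale (SE 1.14, edgeR adjusted p 0.65), and -0.70 without knockdown library 2.

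Tnfrsf10b, the mouse receptor of TRAIL (Entrez Gene 21933, chromosome 14, 69767472 to 69784411), was at 36.2 and 34.9 CPM in the knockdown libraries, 25.9 and 48.4 CPM in the overexpression libraries, 70.6 and 41.1 CPM in the empty vector libraries and 43.0 and 33.6 CPM in the shRNA control libraries. Empty vector library 1 was the highest and overexpression library 1 the lowest, and in every contrast the groups overlapped. The log2 ratio was -0.11 (SE 0.36) in the knockdown, -0.59 (SE 0.36, edgeR adjusted p 0.61) in the overexpression and 0.54 (SE 0.36) in the empty vector comparison. Without empty vector library 1 the overexpression and empty vector values were -0.14 and 0.10, and without overexpression library 2 the overexpression value was -1.11.

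Tnfrsf1a, the main TNF receptor of most cells (Entrez Gene 21937, chromosome 6, 125349723 to 125362483), was the most abundant of the receptors. Its levels were 117 and 66.6 CPM in the knockdown libraries, 63.4 and 74.0 CPM in the overexpression libraries, 62.4 and 70.5 CPM in the empty vector libraries and 89.4 and 86.2 CPM in the shRNA control libraries. The knockdown libraries lay on either side of the controls (log2 ratio 0.07, SE 0.27, 95% interval -0.56 to 0.69), and the value was -0.41 without knockdown library 1 and 0.42 without library 2. Both empty vector libraries lay below both shRNA controls (log2 ratio -0.40, SE 0.27, edgeR adjusted p 0.512), as did 26.5% of all genes. Overexpression over empty vector gave 0.05 (SE 0.27).

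Fadd, the adaptor that joins receptors to caspase 8 (Entrez Gene 14082, chromosome 7, 144578323 to 144582441), was at 25.7 and 27.1 CPM in the knockdown libraries, 33.7 and 17.2 CPM in the overexpression libraries, 17.0 and 37.2 CPM in the empty vector libraries and 22.5 and 20.5 CPM in the shRNA control libraries. In the overexpression and empty vector groups the libraries of a pair differed 1.96-fold and 2.19-fold, more than any difference between group means. Knockdown libraries were above both controls by a log2 ratio of 0.30 (SE 0.42, edgeR adjusted p 0.992). The overexpression log2 ratio of -0.09 (SE 0.42) became 0.58 without empty vector library 2 and -0.65 without overexpression library 1. An antisense gene, Faddos, overlaps Fadd in GENCODE M21, and the strand setting of the counting is not given in the sources used here.

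Casp8, the initiator caspase whose activity also restrains necroptosis (Entrez Gene 12370, chromosome 1, 58795233 to 58847503), was at 61.3 and 32.3 CPM in the knockdown libraries, 55.8 and 38.9 CPM in the overexpression libraries, 27.9 and 38.5 CPM in the empty vector libraries and 45.1 and 40.2 CPM in the shRNA control libraries. Both overexpression libraries were above both empty vector libraries, though library 2 only just, at 38.9 against 38.5 CPM, with a log2 ratio of 0.51 (SE 0.34, edgeR adjusted p 0.626). Of all genes, 24.1% had both overexpression libraries higher. That value was 0.23 without overexpression library 1 and 0.76 without empty vector library 2. Empty vector libraries were both below the shRNA controls (log2 ratio -0.36, SE 0.34), with -0.15 without empty vector library 1 and -0.61 without library 2. The knockdown value was 0.13 (SE 0.34), -0.41 without knockdown library 1 and 0.52 without library 2.

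Ripk1, the kinase that links the TNF receptor to survival or to death (Entrez Gene 19766, chromosome 13, 34002225 to 34035170), was at 55.0 and 38.96 CPM in the knockdown libraries, 67.9 and 56.1 CPM in the overexpression libraries, 63.7 and 54.3 CPM in the empty vector libraries and 50.02 and 39.3 CPM in the shRNA control libraries. It was the steadiest of the 9 genes, with its highest library 1.74-fold above its lowest. The empty vector and overexpression libraries all lay above both shRNA control libraries, and the empty vector log2 ratio was 0.40 (SE 0.24, edgeR adjusted p 0.482). Over all genes, 24.6% had both empty vector libraries above both controls. Knockdown and overexpression log2 ratios were 0.07 each (SE 0.24), with 95% intervals of -0.49 to 0.64 and -0.49 to 0.63. Serpinb6a overlaps Ripk1 on the opposite strand, so reads of the pair could not be told apart if strand was not used.

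Ripk3, the kinase that activates Mlkl (Entrez Gene 56532, chromosome 14, 55784995 to 55788857), was at 85.2 and 69.4 CPM in the knockdown libraries, 128 and 103 CPM in the overexpression libraries, 79.9 and 102 CPM in the empty vector libraries and 115 and 83.3 CPM in the shRNA control libraries. Overexpression libraries were both above the empty vector libraries, the lower of them at 103 against 102 CPM (log2 ratio 0.35, SE 0.24, edgeR adjusted p 0.631). Knockdown library 1 lay between the shRNA controls and library 2 below them (log2 ratio -0.36, SE 0.24, edgeR adjusted p 0.992). The overexpression effect minus the knockdown effect was 0.71 (SE 0.35, edgeR adjusted p 0.65). Leaving out 1 library moved that difference between 0.46 and 0.92, the knockdown value between -0.58 and -0.11 (lacking control library 2 or 1), and the overexpression value between 0.18 (without overexpression library 1) and 0.54 (without empty vector library 2).

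Mlkl, the executioner of necroptosis (Entrez Gene 74568, chromosome 8, 111311255 to 111338479), was at 106 and 63.5 CPM in the knockdown libraries, 107 and 164 CPM in the overexpression libraries, 92.8 and 127 CPM in the empty vector libraries and 105 and 69.0 CPM in the shRNA control libraries. Every pair of libraries was spread 1.37-fold to 1.67-fold, and the groups overlapped in all contrasts. Its log2 ratio was -0.04 (SE 0.35) in the knockdown, 0.30 (SE 0.35) in the overexpression and 0.34 (SE 0.35) in the empty vector comparison. The overexpression value was -0.04 without overexpression library 2 and 0.58 without library 1, and the empty vector value was 0.67 without shRNA control library 1 and 0.0632 without library 2.

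Zbp1, the sensor of Z-form nucleic acids that can start necroptosis through Ripk3 (Entrez Gene 58203, chromosome 2, 173206612 to 173218959), had the widest range of the 9 genes. It had 2.72 and 2.32 CPM in the knockdown libraries, 3.71 and 211 CPM in the overexpression libraries, 123 and 124 CPM in the empty vector libraries and 0.995 and 4.15 CPM in the shRNA control libraries. Both empty vector libraries and overexpression library 2 were high, with 2294 to 3820 counts, and the other 5 libraries were low, with 19 to 80 counts. The means were 123.5 ± 1.14 CPM with the empty vector and 2.57 ± 2.23 CPM with the control shRNA (SD, n = 2 each). The empty vector log2 ratio over shRNA control was 5.58 (SE 1.57, edgeR adjusted p 0.338, 95% interval 1.94 to 9.22). It passed with DESeq2 (adjusted p 0.0256) and with only the compared groups in the edgeR model (adjusted p 0.0105), and had an adjusted p of 0.148 to 0.849 under the other 7 settings. Because the overexpression pair differed 56.8-fold, the overexpression log2 ratio of -0.20 (SE 1.26, edgeR adjusted p 0.958) describes neither library. It was 0.77 without overexpression library 1 and -5.05 without overexpression library 2 (edgeR adjusted p 0.089 in that fit). In the knockdown the log2 ratio was -0.03 (SE 1.46, 95% interval -3.41 to 3.35), and it was 1.33 without shRNA control library 2.

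**Figure D3:**
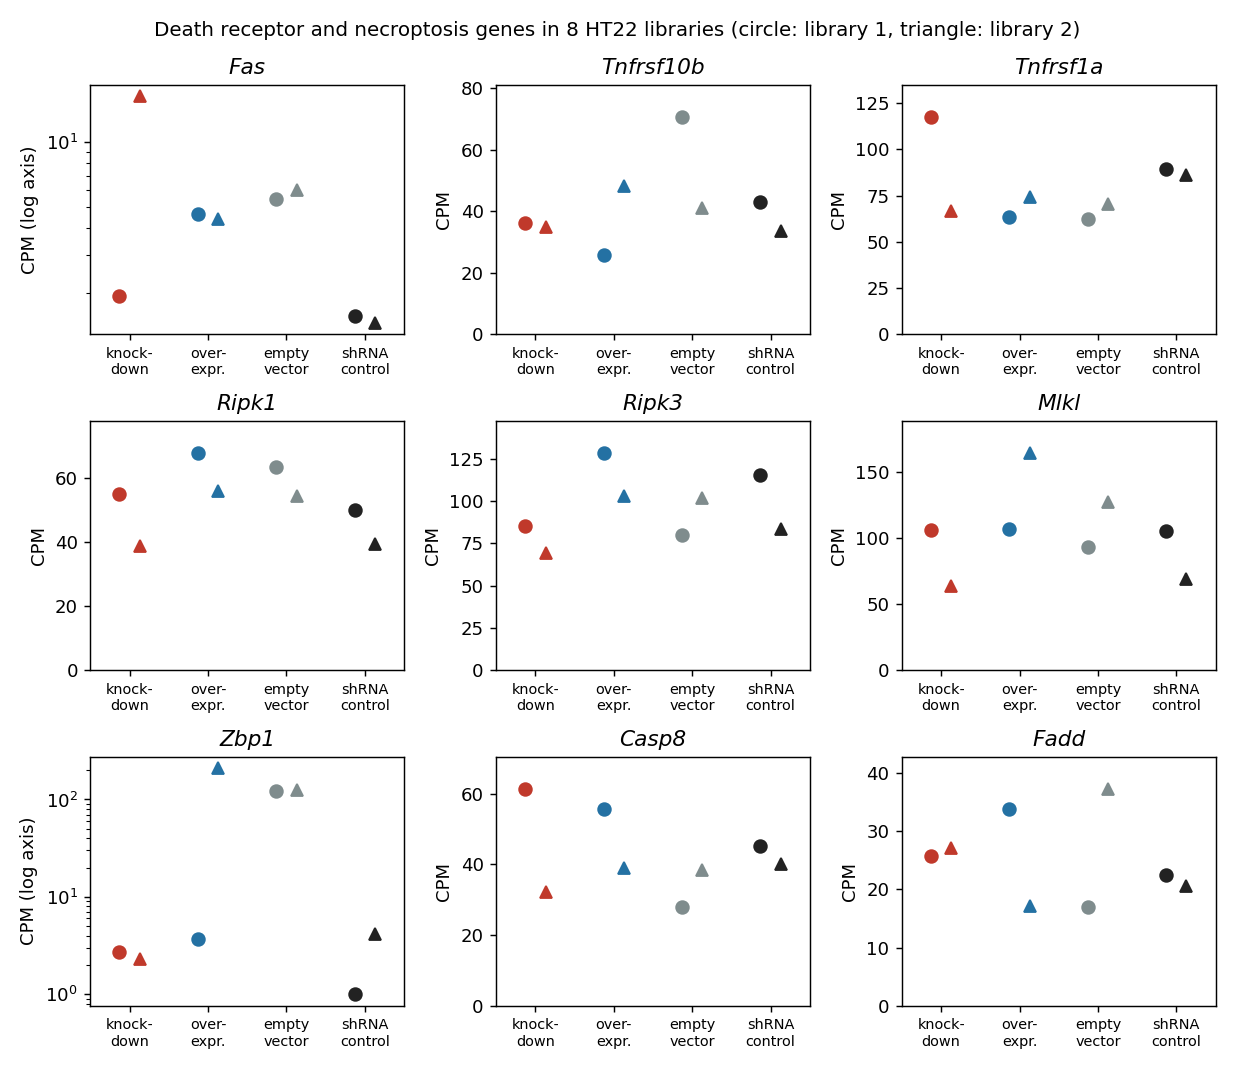
CPM of each of the 9 genes by group, with a circle for library 1 and a triangle for library 2; Zbp1 and Fas have a log axis, the others start at 0. Zbp1 is at 123 and 124 CPM with the empty vector and at 3.71 and 211 CPM in the overexpression pair, and Fas at 16.3 CPM in 1 knockdown library.

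Interferon-stimulated genes differed between the same libraries as Zbp1. The median of 39 such genes, as log2 CPM minus the shRNA control mean, was 0.43 and 0.14 in the knockdown libraries, 0.63 and 4.31 in the overexpression libraries, 3.78 and 4.34 in the empty vector libraries and -0.29 and 0.29 in the shRNA control libraries. Of the 39, 38 had both empty vector libraries above both shRNA controls, against 24.6% of all genes. The list's median log2 ratio in that comparison was 4.12, against -0.0029 over all genes tested. In edgeR 0 of the 39 passed, although 38 were higher at an unadjusted p under 0.05, against 6.45% of all genes. With DESeq2, 35 of the 39 were called, all higher, and edgeR with only the compared groups also called 35. Over all genes these 2 settings called 281 and 128. The delivery of the empty vector and of the control shRNA cannot be told apart from the group, and the part of the interferon list in the Zbp1 values was not tested. In the other 8 genes the higher library of the overexpression pair was 1.05-fold (Fas) to 1.96-fold (Fadd) above the lower.

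**Figure D4:**
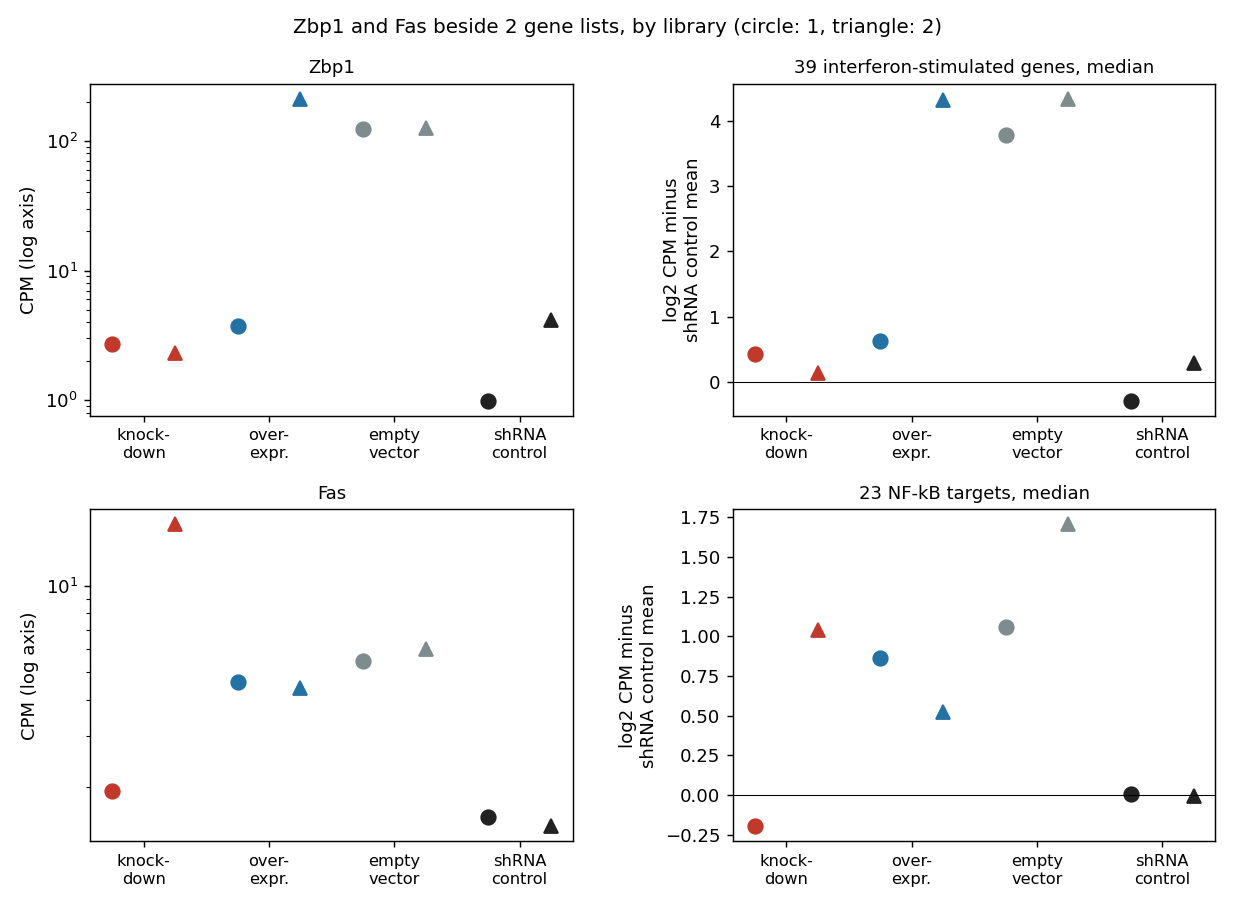
Zbp1 and Fas in CPM (log axis, left) beside the median of 39 interferon-stimulated genes and of 23 NF-kB targets (right, log2 CPM minus the shRNA control mean), with 2 libraries per group. Zbp1 and the interferon list are high in both empty vector libraries and in overexpression library 2 only, with list medians of 3.78 to 4.34 there.

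Ligands and decoy receptors were described from a list of 22 death receptors and ligands. Of these, 12 were tested, among them the 3 receptors above, and 0 passed edgeR or DESeq2 in either direction in any contrast. At an unadjusted edgeR p under 0.05 were 2, 0 and 4 in the knockdown, the overexpression and the empty vector comparison. Fas is among the 2 and among the 4, and Tnfsf10 is among the 4. The shares of all genes at that p were 3.12%, 7.62% and 12.5%. Tnf, the ligand of Tnfrsf1a, had 2.88 and 21.5 CPM in the knockdown libraries, 15.8 and 15.6 CPM in the overexpression libraries, 31.7 and 46.9 CPM in the empty vector libraries and 12.2 and 12 CPM in the shRNA control libraries. It was thus higher with the empty vector than in any other group, with a log2 ratio over shRNA control of 1.70 (SE 0.73). The TRAIL gene Tnfsf10 was at 0.209 and 0 CPM in the knockdown libraries, 0.154 and 1.6 CPM in the overexpression libraries, 0.374 and 4.43 CPM in the empty vector libraries and 0 and 0.0519 CPM in the shRNA controls. Its log2 ratio for empty vector over shRNA control was 6.21 (SE 1.99, edgeR adjusted p 0.351), a fitted value that depends on the prior count, since the controls held 1 count in all. Tnfsf10 passed the filter on low counts only through empty vector library 2 and overexpression library 2. The ratio therefore describes these libraries and supports no further claim. Tnfrsf12a, the receptor of TWEAK, had 145 and 215 CPM in the overexpression libraries and 329 and 302 CPM in the empty vector libraries (log2 ratio -0.81, SE 0.35). The decoy receptors Tnfrsf22 and Tnfrsf23 had knockdown log2 ratios of -0.58 (SE 0.23) and -0.68 (SE 0.33), with both knockdown libraries below both controls. The list's median log2 ratio was 0.04 in the knockdown, -0.26 in the overexpression and 0.46 in the empty vector comparison, against 0.01, -0.01 and -0.0029 over all genes.

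Among 31 adaptors and ubiquitin enzymes of the receptor complexes, all tested, 0 passed edgeR or DESeq2 in either direction in any contrast. The list includes the members Ripk1 and Fadd. At an unadjusted edgeR p under 0.05 were 0, 1 and 3 in the knockdown, the overexpression and the empty vector comparison, against 3.12%, 7.62% and 12.5% of all genes. Cflar, which encodes the caspase 8 inhibitor c-FLIP, had 45.0 and 47.8 CPM in the overexpression libraries and 81.9 and 63.5 CPM in the empty vector libraries (log2 ratio -0.65, SE 0.25). Against the shRNA control, with 43.3 and 35.8 CPM, the empty vector log2 ratio of Cflar was 0.88 (SE 0.25, edgeR adjusted p 0.342). The ubiquitin ligase Rnf31 had 0.90 (SE 0.35) in that comparison. The list's medians were 0.04, -0.12 and 0.20 in the knockdown, the overexpression and the empty vector comparison.

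Of the 23 necroptosis genes, all tested and with the members Ripk1, Ripk3, Mlkl and Zbp1 among them, 0 passed edgeR in any contrast. At an unadjusted edgeR p under 0.05 were 1, 3 and 3 in the knockdown, the overexpression and the empty vector comparison, against 3.12%, 7.62% and 12.5% of all genes. In the empty vector comparison DESeq2 called 2 of the 23, Adar and Zbp1, both higher, and so did edgeR with only the compared groups. Over all genes these 2 settings called 281 and 128. Pgam5, a mitochondrial phosphatase linked to necroptosis, had 44.3 and 59.2 CPM in the knockdown libraries and 104 and 87.0 CPM in the shRNA controls, a log2 ratio of -0.89 (SE 0.21, edgeR adjusted p 0.992). Adar, whose RNA editing limits Zbp1 activation, had 78.9 and 277 CPM in the overexpression libraries, 384 and 432 CPM in the empty vector libraries and 85.6 and 86.7 CPM in the shRNA controls. The double-stranded RNA receptor Tlr3 had 5.0 and 25.8 CPM, 11.1 and 31.8 CPM and 5.13 and 4.36 CPM in those groups. For Adar and Tlr3, as for Zbp1, overexpression library 1 lay nearer the shRNA controls than library 2 did. List medians were 0.03, 0.03 and 0.05.

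Among 21 tested genes of caspases and the apoptosome, which include the member Casp8, 0 passed edgeR or DESeq2. At an unadjusted edgeR p under 0.05 were 2, 3 and 4 in the same 3 comparisons, against 3.12%, 7.62% and 12.5% of all genes. Casp6, an executioner caspase, had 20.2 and 15.8 CPM in the overexpression libraries, 7.38 and 9.07 CPM in the empty vector libraries and 18.6 and 14.1 CPM in the shRNA controls. Its log2 ratio was 1.13 (SE 0.38) for overexpression over empty vector and -0.99 (SE 0.38) for empty vector over shRNA control, 2 contrasts that share the empty vector libraries. The inflammatory caspase Casp4 had 42.7 and 96.1 CPM in the knockdown libraries, 56.2 and 100 CPM in the empty vector libraries and 20.1 and 39.2 CPM in the shRNA controls. With the empty vector 7 of the 21 were lower in both libraries and 3 higher, with a list median of -0.30, against 26.5% of all genes lower and 24.6% higher. In the overexpression comparison 8 were higher and 2 lower, with a median of 0.07, against 24.1% of all genes higher and 23.1% lower. Casp8 is counted among the 7 lower with the empty vector and among the 8 higher in the overexpression.

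The genes most like each member were those with the smallest root mean square difference of log2 CPM over the 8 libraries after centring. For Zbp1 they were the interferon-stimulated genes Isg15 (0.313), Ifit3 (0.324) and Gbp3 (0.33), small beside the standard deviation of 2.95 for Zbp1. Isg15 had 5.10 and 261 CPM in the overexpression libraries, 228 and 188 CPM with the empty vector and 2.17 to 4.93 CPM in the other 4. For Fas they were Tmem176b (0.347), Rab30 (0.383) and Tmem176a (0.399), at 573, 34.3 and 176 CPM in knockdown library 2, the highest of the 8 libraries for each. For Ripk3 they included Smc4 (0.078) and Mapre1 (0.0788), and for Casp8 they were Anxa6 (0.0798), Lpcat3 (0.0839) and Echdc1 (0.0841). Nfat5 was the most like Tnfrsf10b (0.104), Glis2 the most like Tnfrsf1a (0.0681), Cfap300 the most like Ripk1 (0.08) Synpo2 the most like Mlkl (0.113) and A930033H14Rik the most like Fadd (0.142). These values describe 8 libraries that share groups and carry no test.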

How the data were processed

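Polyadenylated RNA of HT22 cells was extracted with TRIzol and made into stranded libraries, per the labels' protocols. The authors deposited read counts per gene and FPKM values for 2 numbered columns in each of 4 groups, although the labels list 1 sample per group. Trimmomatic, HISAT2, Cufflinks, HTSeq, DESeq and the mm10 genome are named in the submitters' processing notes, without versions. The annotation is not given in the sources used here, nor is the strand setting.

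All 8 columns of counts were used, with 0 left out. Low genes were removed by filterByExpr at a minimum count of 10, and the rest were TMM-scaled and fitted with edgeR 4.0.16's quasi-likelihood test on R 4.3.3, with 1 term per group and Benjamini-Hochberg adjustment over 12115 genes at a threshold of 0.05. The biological coefficient of variation was 28.0% on 4 residual degrees of freedom. The pair of libraries in each group differed beyond counting noise, with a chi-square per gene of 62.1 to 156. Alternatives were RLE size factors, no filter, DESeq2 1.42.0, a replicate block, only the groups compared, and each library left out. For genes with counts in all 8 libraries, the length implied by the deposited FPKM, the count and the total was compared between libraries. It was the same within a tolerance of 0.01 in 12615 of 12615 genes. This does not check whether the length itself is right.

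From each pathway list the text names up to 4 tested genes with the largest absolute log2 ratio per contrast, and from the likeness search up to 3 genes per member; 2 genes that these rules name are not reported here. Members and lists were chosen with earlier results of these data known. The SE of an edgeR log2 ratio is its absolute value over the square root of the F statistic. Intervals are at 95% and use this SE, so they restate the unadjusted p of the same test.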

Additional observations from a re-analysis of the deposited data

How the results depend on the processing

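Of 351 values of the 9 genes under alternatives, 312 kept their direction and side of the threshold, 37 changed sign and 2, both Zbp1 with the empty vector, newly passed. Counts over all genes, 0 in each contrast as reported, became 15, 1, 281 and 12 with DESeq2 in the knockdown, the overexpression, the empty vector comparison and the difference. They became 3 without a filter (empty vector), and 1 and 128 with only the groups compared (overexpression and empty vector). Leaving out 1 library gave 0 to 1 in the knockdown and in the difference (1 without knockdown library 1), 0 to 25 in the overexpression (25 without overexpression library 2) and 0 with the empty vector. The cause was not tested. The labels carry no replicate numbers, and deviations of equally numbered columns correlated between -0.364 and 0.357, so the numbers are not taken as pairs. With a replicate block no gene among the 9 changed its call, while Zbp1 became 0.42 in the knockdown, -1.18 in the overexpression and -1.60 in the difference, and the Ripk1 difference 0.0054, and without a filter the Ripk1 difference was 0.0024.

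Values that changed sign when 1 library was left out ranged as follows. In the knockdown they were -0.41 to 0.52 for Casp8, -0.46 to 0.30 for Mlkl, -0.21 to 0.30 for Ripk1, -0.28 to 0.0813 for Tnfrsf10b, -0.41 to 0.42 for Tnfrsf1a and -0.72 to 1.33 for Zbp1. In the overexpression they were -0.65 to 0.58 for Fadd, -0.0424 to 0.58 for Mlkl, -0.0707 to 0.205 for Ripk1, -0.0661 to 0.16 for Tnfrsf1a and -5.05 to 0.77 for Zbp1. With the empty vector they were -0.34 to 0.79 for Fadd and -0.34 to 0.12 for Ripk3. In the difference they were -0.0117 to 0.91 for Casp8, -0.95 to 0.29 for Fadd, -0.0034 to 0.76 for Mlkl, -0.23 to 0.27 for Ripk1, -0.37 to 0.45 for Tnfrsf1a and -5.02 to 0.81 for Zbp1. The standard error of the Fas knockdown ratio was 0.84, and 0.37 and 0.44 without knockdown library 1 or 2. That of the Zbp1 empty vector ratio was 1.57, and 0.60 with only the compared groups.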

Other observations

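Tnfrsf10b is a known target of p53 and of the stress factor CHOP, and both lists were measured beside it. The median of 19 p53 targets, as log2 CPM minus the shRNA control mean, was -0.24 and 0.03 in the knockdown libraries, 0.06 and 0.07 in the overexpression libraries, 0.40 and 0.18 in the empty vector libraries and -0.15 and 0.15 in the shRNA control libraries. The median of 14 ATF4 and CHOP targets was 0.11 and 0.51, 0.41 and 0.04, 0.71 and 0.35, and -0.39 and 0.39 in the same order of groups. Empty vector library 1, the highest for Tnfrsf10b, was also the highest for both lists, but overexpression library 1, the lowest for Tnfrsf10b, had a higher ATF4 and CHOP median than overexpression library 2. Ddit3, the gene of CHOP, was highest in knockdown library 2 at 215 CPM, where Tnfrsf10b was at 34.9 CPM. In empty vector library 1 Ddit3 was at 133 CPM, and in the shRNA controls at 39.4 and 64.4 CPM. In edgeR 0 genes of either list passed in any contrast. With the empty vector DESeq2 called 2 ATF4 and CHOP targets higher, Cebpb and Chac1, where it called 281 over all genes. In that comparison 3 p53 targets and 4 ATF4 and CHOP targets were at an unadjusted edgeR p under 0.05, against 12.5% of all genes. The part of these lists in the Tnfrsf10b values was not tested.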
